A study of Mus musculus with 6 samples.

Results

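The genes that make, degrade and read the cyclic nucleotides cAMP and cGMP were compared between mouse fibrosarcoma cells with lowered Rras2 RNA and the same cells with an empty vector. All genes were taken whose symbol in the platform annotation starts with Pde or Adcy and a digit, or with Gucy, Prkaca, Prkacb, Prkar, Prkg1 or Prkg2. This gave 49 of the 19505 genes on the array, of which 18 are cyclase genes, 23 phosphodiesterase genes and 8 kinase genes. Genes were chosen by symbol, and the probe set of a symbol was to be selected on its mean signal over the 6 arrays. Each of the 49 had 1 probe set, so brightness decided nothing within the family, but the family itself was proposed with results of this comparison known. Its share of calls is therefore a description and supports nothing. The Pde4d and Gucy1a1 genes were not analysed here.

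All 6 samples are cells of a C57BL/6 fibrosarcoma, a malignant tumor of fibroblast-like cells, that carry Rras2(Q72L), a mutant form of the RAS-related GTPase R-RAS2. In the shRras2 group (3 arrays, replicates 4, 5 and 6) the cells were transduced with 1 lentiviral shRNA against Rras2, named sh#89. In the pLKO group (3 arrays, replicates 1, 2 and 3) they were transduced with the empty pLKO vector. A single shRNA was used, so effects of its sequence on other transcripts cannot be told apart from loss of Rras2, and the labels name no separate cultures, so the p-values reflect only how far these arrays scatter, which can be a technical matter.

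Adenylyl cyclases in the membrane make cAMP when G-protein coupled receptors activate them, and guanylyl cyclases make cGMP in response to nitric oxide (the soluble form) or peptides (the membrane forms). Phosphodiesterases (PDEs) break the rings open, each family with its own preference for cAMP or cGMP. cAMP frees the catalytic subunits of protein kinase A (PKA) from its regulatory subunits, and cGMP activates protein kinase G (PKG). In fibroblasts and muscle cells these kinases are known for their effects on contraction, the cytoskeleton and transcription.

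Levels below are log2 RMA signals, a scale on which a difference of 1 is a doubling, and differences are shRras2 minus pLKO. A gene was called changed at an adjusted p under 0.05 in limma, with adjustment over all 19505 genes. The arrays hold 5222 negative-control probe sets, whose signals had a 95th percentile of 7.92, and a gene with a mean above this in neither group is called dim here. Differences of dim genes are imprecise and can be understated. Of the 49 genes, 14 were above this percentile in at least 1 group and 35 were dim. Of all 19505 genes, 8361 were above it and 11144 were dim, so most genes on the array were dim in this sense. The median negative-control signal was 5.02.

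Rras2 RNA was lower on all 3 shRras2 arrays, with 9.09, 9.69 and 9.21 on replicates 4, 5 and 6, against 10.67, 10.75 and 10.82 on pLKO replicates 1, 2 and 3. Between 31.8% and 48.1% of the mean pLKO signal remained, most on replicate 5 (log2 difference -1.41 ± 0.14, SE; limma adjusted p = 0.00163; exact two-sided permutation p = 0.1, the smallest that 3 arrays against 3 can give). Of 12 fibroblast markers measured, 7 lay above the negative-control percentile, among them Vim, Fn1, Col3a1 and Pdgfrb, whereas Col1a2, Thy1, Dcn, Lum and Fap were dim. Of the 12, 4 were called higher and 0 lower in limma, where 2.99% of all genes were called higher and 2.22% lower. The summed linear signal of the 12 was 34730 to 35400 on the shRras2 arrays and 31460 to 32110 on the pLKO arrays. Epithelial (6), endothelial (5) and immune (5) markers were all dim on both sides. Skeletal muscle markers moved with the knockdown: 14 of 21 were called higher and 0 lower, against the same shares of all genes. Their summed linear signal was 8589 to 13370 on the shRras2 arrays, lowest on replicate 5, against 3039 to 3339 on the pLKO arrays. Of these markers Myod1, Myf5, Tnnc2, Ckm, Ttn, Des, Chrna1 and Cdh15 were dim in both groups. Of 9 smooth muscle markers 0 passed limma's threshold, 3 reached an unadjusted p under 0.05 (as did 19.1% of all genes), and the summed signal was 30380 to 32780 on the shRras2 arrays and 26890 to 29630 on the pLKO arrays. The part of such markers in the differences below was not tested, and in RNA from a whole culture a change in the share of a cell type cannot be told apart from a change in RNA per cell.

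Of the 49 genes 8 passed the threshold, a share of 16.3%, where 5.21% of all 19505 genes did. Higher in shRras2 cells were the cAMP- and cGMP-degrading genes Pde7b, Pde5a, Pde4b and Pde2a, the adenylyl cyclase gene Adcy7 and the PKG gene Prkg1 (6 genes, where 2.99% of all genes were called higher). Lower were the PKA regulatory subunit gene Prkar2a and the second PKG gene, Prkg2 (2 genes, where 2.22% of all genes were called lower). The median difference of the 49 was -0.01, as was that of all genes. The arrays of the groups did not overlap for 18 of the 49 genes, and for 25.5% of all genes. The count of 8 was 4 without pLKO replicate 1, shRras2 replicate 4 or shRras2 replicate 6, and 5 without pLKO replicate 2. It was 5 without pLKO replicate 3, with 4 of the original genes and Pde1b. Without shRras2 replicate 5 it was 8, with 6 of the original genes. The 3 calls that stayed in each of the 6 fits without 1 array were those of Pde7b, Pde5a and Prkar2a, and 1.67% of all genes were called and stayed in this way.

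**Figure D1:**
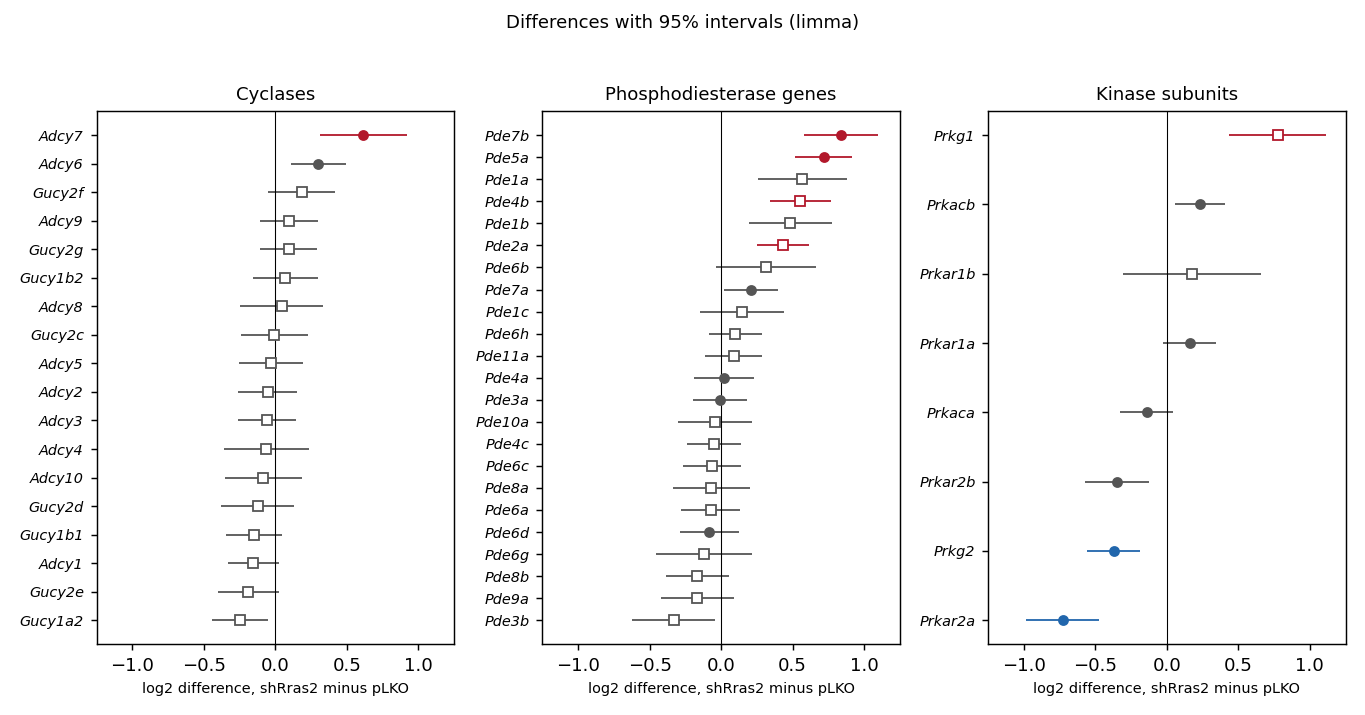
Log2 differences, shRras2 minus pLKO, of the 18 cyclase genes, 23 phosphodiesterase genes and 8 kinase genes, ordered by size, with 95% intervals from limma as bars. Red marks the 6 genes called higher and blue the 2 called lower; grey genes did not pass, filled circles were above the negative-control percentile in at least 1 group and open squares were dim. Called genes are 1 of the cyclases, 4 of the phosphodiesterase genes and 3 of the kinase subunits.

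The promoter windows of the 3 genes whose calls stayed in every fit are shown because each has 1 annotated start. The windows run 5′ to 3′ from 250 bases before to 50 after the RefSeq start in GRCm38.p6, at chr10:20548279-20548578 on the minus strand for Pde7b, chr3:122728908-122729207 on the plus strand for Pde5a and chr9:108691893-108692192 on the plus strand for Prkar2a. Capitals mark matches, on either strand, to the cAMP response element TGACGTCA, its core TGACG (which the full element contains), the E-box CAGCTG favored by myogenic factors, the AP-1 motif TGANTCA and the GC box GGGCGG.
Pde7b: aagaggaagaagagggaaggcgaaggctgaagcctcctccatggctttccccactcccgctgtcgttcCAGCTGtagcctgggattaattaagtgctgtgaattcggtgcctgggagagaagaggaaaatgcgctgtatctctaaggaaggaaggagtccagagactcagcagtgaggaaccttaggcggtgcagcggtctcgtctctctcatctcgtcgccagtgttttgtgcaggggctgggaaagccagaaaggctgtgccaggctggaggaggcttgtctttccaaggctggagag
Pde5a: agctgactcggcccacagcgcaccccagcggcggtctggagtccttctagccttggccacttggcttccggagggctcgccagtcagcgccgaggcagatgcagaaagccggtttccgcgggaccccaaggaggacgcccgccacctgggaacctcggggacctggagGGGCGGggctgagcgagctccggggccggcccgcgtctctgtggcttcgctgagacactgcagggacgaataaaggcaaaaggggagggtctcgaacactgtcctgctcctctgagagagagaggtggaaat
Prkar2a: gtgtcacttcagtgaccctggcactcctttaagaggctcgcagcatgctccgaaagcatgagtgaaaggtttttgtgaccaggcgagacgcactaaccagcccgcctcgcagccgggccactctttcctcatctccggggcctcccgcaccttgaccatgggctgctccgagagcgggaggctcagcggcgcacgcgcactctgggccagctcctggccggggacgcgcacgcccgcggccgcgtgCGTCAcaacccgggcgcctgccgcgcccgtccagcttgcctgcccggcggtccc
The Pde7b window held the E-box, 182 bases before the start. The Pde5a window held a GC box, 82 bases before the start, and the Prkar2a window held the core on the opposite strand, which begins 4 bases before the start. A match describes letters and not a bound site.

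Promoter windows were found for 38 of the 49 genes, 77 windows in all, since some genes have several starts. None was found for Prkg2. The full cAMP response element was in 2 of the 77 windows, both of Prkar1a, which encodes a PKA regulatory subunit (2.6%, against 1.79% of all 32851 windows). The core was in 24.7% of the windows of these genes and 20.8% of all windows, the E-box in 22.1% and 16.3%, the AP-1 motif in 6.49% and 7.81%, and the GC box in 42.9% and 35.7%. Among the called genes with several starts, Pde4b had the core in 1 and the E-box in 1 of 4 windows, and Pde2a had the core in 1 and the GC box in 1 of 5. Adcy7 had the core, the AP-1 motif and the GC box in 1 of 3 windows each, and Prkg1 had the GC box in 2 of 2; the other motifs searched were in none of the windows of these genes.

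The phosphodiesterase genes that passed were all higher in shRras2 cells. Of 23 genes 4 rose, 0 fell and 19 did not pass in limma (17.4% called, where 5.21% of all genes were; median difference of the class 0.02). An unadjusted p under 0.05 was found for 8 of the 23, and for 19.1% of all genes. The 4 called genes cover all of the substrate classes: 2 of the 7 cAMP-specific genes, 1 of the 5 cGMP-specific genes and 1 of the 8 genes for enzymes that cleave both. The other 3 of the 23 encode noncatalytic subunits of the photoreceptor enzyme PDE6, and 0 of them passed in limma, also at an unadjusted p under 0.05.

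Pde7b, which encodes a cAMP-specific enzyme, had signals of 8.62, 8.82 and 8.56 on shRras2 replicates 4, 5 and 6, against 7.97, 7.89 and 7.62 on pLKO replicates 1, 2 and 3. The groups did not overlap, and the gene crossed the negative-control percentile, with a mean of 8.67 ± 0.14 in shRras2 cells and 7.83 ± 0.18 in pLKO cells (SD, n = 3 each). It rose 1.79-fold (95% interval 1.50 to 2.14; limma adjusted p = 0.00507), the largest difference among the 49 genes, and the adjusted p reached at most 0.026 without 1 array. Its paralog Pde7a, also cAMP-specific, had 8.80, 8.60 and 8.66 in shRras2 cells and 8.46, 8.52 and 8.46 in pLKO cells. Here too the groups did not overlap, but the difference of 0.21 ± 0.08 (SE) did not pass (limma adjusted p = 0.215). Whether the paralogs differ in response was not tested.

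Pde5a encodes the cGMP-specific enzyme that sildenafil inhibits. It had 9.68, 9.47 and 9.67 on shRras2 replicates 4, 5 and 6, against 8.91, 8.94 and 8.82 on the pLKO arrays. Every shRras2 array lay well above every pLKO array, with replicate 5, the array with most Rras2 left, nearest to the controls. The gene rose 1.65-fold (95% interval 1.43 to 1.89; limma adjusted p = 0.00323) and had the lowest adjusted p of the 49 genes. The adjusted p lay between 0.00281, without shRras2 replicate 5, and 0.0218, without replicate 6.

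Pde4b encodes a cAMP-specific enzyme of the rolipram-sensitive family. Its signals were 6.72, 6.83 and 6.61 in shRras2 cells and 6.29, 6.06 and 6.16 in pLKO cells, all of them in the dim range. The groups did not overlap and the gene rose 1.47-fold (95% interval 1.26 to 1.70; limma adjusted p = 0.0126). The call was lost without pLKO replicate 3 (adjusted p = 0.0533) or shRras2 replicate 4 (0.0551). Of its relatives, Pde4a stood at 8.91, 9.06 and 8.94 in shRras2 cells and 9.01, 8.80 and 9.04 in pLKO cells, which overlap. Its fold was 1.02 with a 95% interval of 0.877 to 1.18 (limma adjusted p = 0.934), and the sign of its difference turned negative when arrays were centred on their median. Pde4c was dim and did not pass.

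Pde2a encodes an enzyme for both nucleotides that cGMP stimulates. Its signals of 7.30, 7.25 and 7.42 in shRras2 cells and 6.90, 6.94 and 6.82 in pLKO cells were dim, tightly grouped and without overlap. It rose 1.35-fold (95% interval 1.19 to 1.54; limma adjusted p = 0.0196). The call was lost without pLKO replicate 1 (adjusted p = 0.0704) or 3 (0.0804), and without shRras2 replicate 4 (0.0665) or 6 (0.0806).

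The calcium- and calmodulin-activated enzymes came next in the ranking without passing, and these values were singled out after they were seen. Pde1a had 6.03, 5.82 and 6.40 in shRras2 cells and 5.51, 5.60 and 5.43 in pLKO cells, a difference of 0.57 ± 0.14 (SE) just outside the threshold (limma adjusted p = 0.0516). Pde1b had 6.81, 6.60 and 6.54 in shRras2 cells and 5.96, 6.11 and 6.42 in pLKO cells, a difference of 0.49 ± 0.13 (limma adjusted p = 0.0672). In both genes the groups did not overlap, though all signals were dim. Pde1a passed in 5 and Pde1b in 3 of the 8 alternatives that kept all arrays. Among the fits without 1 array, Pde1a passed only without shRras2 replicate 5 and Pde1b only without pLKO replicate 3. The third family member, Pde1c, differed by 0.15 ± 0.13 (limma adjusted p = 0.605).

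Pde3a, which encodes a cAMP-degrading enzyme that cGMP inhibits, had 9.33, 9.23 and 9.25 in shRras2 cells and 9.18, 9.38 and 9.27 in pLKO cells. The groups overlapped, and its fold of 0.994 had a 95% interval of 0.871 to 1.13 (limma adjusted p = 0.976), with a sign that turned under a second quantile normalization, cyclic loess and array weights. Pde6d encodes a carrier of prenylated proteins, RAS proteins among them, rather than an enzyme. It had 9.15, 8.90 and 9.01 in shRras2 cells and 9.01, 9.11 and 9.18 in pLKO cells, again with overlap (fold 0.944, 95% interval 0.818 to 1.09, limma adjusted p = 0.692). The 17 dim genes of this class had means of 4.09 to 7.85 in shRras2 cells and 4.14 to 7.89 in pLKO cells, and their 15 differences that did not pass ran between -0.33, of Pde3b, and 0.57, of Pde1a.

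**Figure D2:**
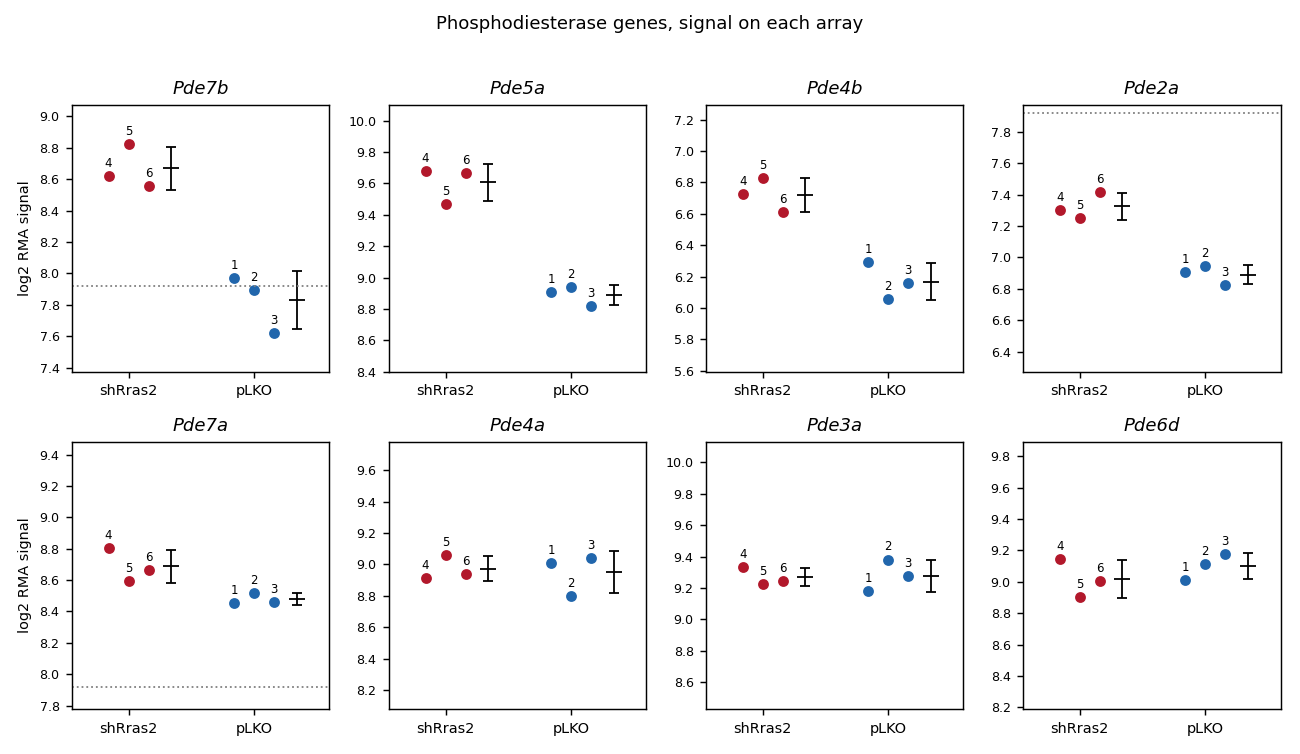
Log2 RMA signal of 8 phosphodiesterase genes on each array, shRras2 (red, replicates 4 to 6) left of pLKO (blue, replicates 1 to 3), with the mean and SD of each group in black. Each vertical axis spans the same width, and the dotted line, where it falls within a panel, is the negative-control percentile of 7.92. Pde7b, Pde5a, Pde4b and Pde2a in the upper row passed the threshold, with all 3 shRras2 arrays above all 3 pLKO arrays; Pde7a, Pde4a, Pde3a and Pde6d in the lower row did not pass.

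Kinase subunits changed in both directions. Of 8 genes 1 rose, 2 fell and 5 did not pass (37.5% called, where 5.21% of all genes were; median difference 0.01). Above the negative-control percentile, where 6 of the 8 lay, 9.16% of all genes were called. The arrays of the groups did not overlap for 6 of the 8 kinase genes, and for 25.5% of all genes. The PKG genes, of which the genome has this pair, moved opposite ways. Prkg1 encodes the soluble PKG, known for relaxing smooth muscle. It had 7.37, 7.70 and 7.78 on shRras2 replicates 4, 5 and 6, against 6.90, 6.56 and 7.06 on the pLKO arrays, all dim. The groups did not overlap and the gene rose 1.71-fold (95% interval 1.35 to 2.17; limma adjusted p = 0.0218). The call was lost without pLKO replicate 1 (adjusted p = 0.0618) or 2 (0.0535), and without shRras2 replicate 5 (0.0517) or 6 (0.0871).

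Prkg2 encodes the membrane-anchored PKG, known from intestine and growing bone. Its signals were high, with 11.22, 11.29 and 11.41 in shRras2 cells and 11.66, 11.67 and 11.70 in pLKO cells. The pLKO arrays lay within a narrow band (SD 0.021) and all shRras2 arrays below it. The gene fell by 0.37 on the log2 scale, to 77.3% of its pLKO level (limma adjusted p = 0.0333). The call was lost whichever array was left out, with adjusted p between 0.0541, without shRras2 replicate 6, and 0.122, without replicate 4.

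Among PKA subunits the largest difference was in Prkar2a, which encodes the type II alpha regulatory subunit that anchoring proteins tether. It had 8.76, 9.09 and 8.68 on shRras2 replicates 4, 5 and 6, against 9.56, 9.52 and 9.63 on pLKO replicates 1, 2 and 3. The groups were far apart, with replicate 5 again nearest to the controls. The gene fell by 0.73 on the log2 scale, to 60.3% of its pLKO level (95% interval of the fold 0.506 to 0.719; limma adjusted p = 0.00878). The adjusted p lay between 0.00218, without shRras2 replicate 5, and 0.046, without replicate 4. Its paralog Prkar2b, for the type II beta subunit, had 10.49, 10.82 and 10.56 in shRras2 cells and 10.95, 10.98 and 11.00 in pLKO cells. These groups did not overlap either, but the difference of -0.35 ± 0.10 (SE) did not pass (limma adjusted p = 0.0863), except without shRras2 replicate 5 (0.0214), with array weights (0.0444) and with a trended, robust variance (0.0084).

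The type I regulatory subunits did not pass. Prkar1a had 11.65, 11.47 and 11.50 in shRras2 cells and 11.35, 11.37 and 11.41 in pLKO cells, without overlap, and a difference of 0.16 ± 0.08 (SE; limma adjusted p = 0.33). Prkar1b was dim, and its arrays ranged widely in both groups, between 5.51 and 6.14 in shRras2 cells and between 5.20 and 6.00 in pLKO cells.

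Of the catalytic subunits, Prkaca had 10.84, 10.67 and 10.79 in shRras2 cells and 10.96, 10.84 and 10.93 in pLKO cells, and the groups overlapped at their edges. Its fold was 0.907 with a 95% interval of 0.797 to 1.03 (limma adjusted p = 0.403). Prkacb had 10.00, 9.95 and 10.01 in shRras2 cells and 9.78, 9.66 and 9.82 in pLKO cells, which do not overlap. Its fold of 1.17 (95% interval 1.04 to 1.33) did not pass (limma adjusted p = 0.144), except with a trended, robust variance (0.0475).

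**Figure D3:**
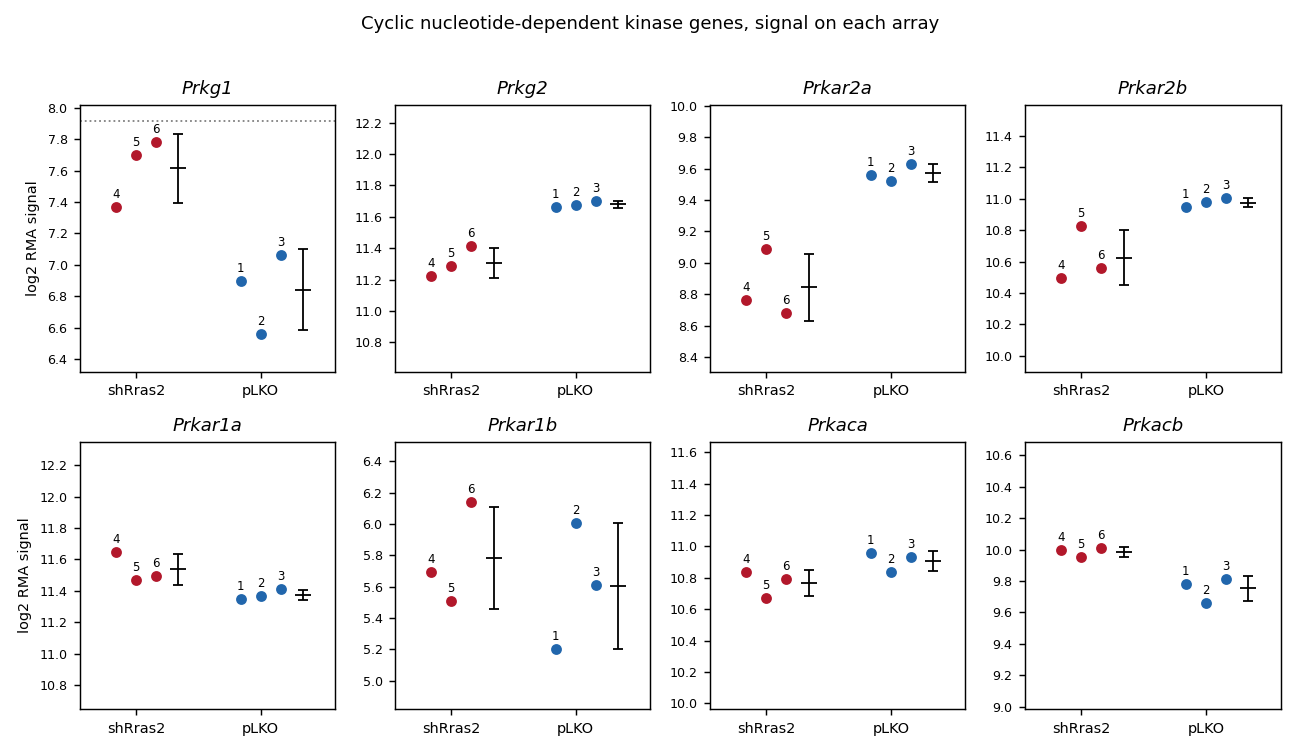
Log2 RMA signal of the 8 kinase genes on each array, shRras2 (red, replicates 4 to 6) left of pLKO (blue, replicates 1 to 3), with the mean and SD of each group in black. Each vertical axis spans the same width, and the dotted line in the panel of Prkg1 is the negative-control percentile of 7.92. Prkg1 is higher and Prkg2 and Prkar2a are lower on all shRras2 arrays; the other 5 genes did not pass the threshold.

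Cyclase genes had 1 call among 18, a share of 5.56% that is close to the 5.21% of all genes. Adcy7, a membrane adenylyl cyclase, had 8.93, 8.67 and 8.81 in shRras2 cells and 8.35, 7.88 and 8.33 in pLKO cells. The groups did not overlap, and pLKO replicate 2 lay lowest. The gene rose 1.53-fold (95% interval 1.24 to 1.89; limma adjusted p = 0.0341), a call that was kept only without shRras2 replicate 5 (adjusted p = 0.0398) among the fits without 1 array. It was lost without pLKO replicates 1, 2 and 3 (0.055, 0.0599 and 0.0643) and without shRras2 replicates 4 and 6 (0.132 and 0.11).

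Adcy6, a membrane adenylyl cyclase that calcium inhibits, was the other of the 18 cyclase genes above the negative-control percentile. It had 9.61, 9.66 and 9.44 in shRras2 cells and 9.24, 9.28 and 9.30 in pLKO cells, without overlap. Its difference of 0.30 ± 0.08 (SE) did not pass (limma adjusted p = 0.0863), though it did without the 30% of genes with the lowest mean (0.04997) and with a trended, robust variance (0.0233). The other 16 cyclase genes were dim, with means of 4.21 to 7.28 in shRras2 cells and 4.26 to 7.33 in pLKO cells and differences between -0.24, of the soluble guanylyl cyclase subunit gene Gucy1a2, and 0.18, of Gucy2f. All 8 genes with a Gucy symbol were among them. None of those 8 passed in limma and 1 had an unadjusted p under 0.05, Gucy1a2 (limma adjusted p = 0.16). For genes this dim, an RNA present at a low level and an absent one cannot be told apart here. The membrane guanylyl cyclases Npr1 and Npr2, which are natriuretic peptide receptors, lie outside the symbol rule. Npr1 was dim, while Npr2 averaged 9.72 in shRras2 cells and 9.74 in pLKO cells and did not pass (limma adjusted p = 0.949).

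**Figure D4:**
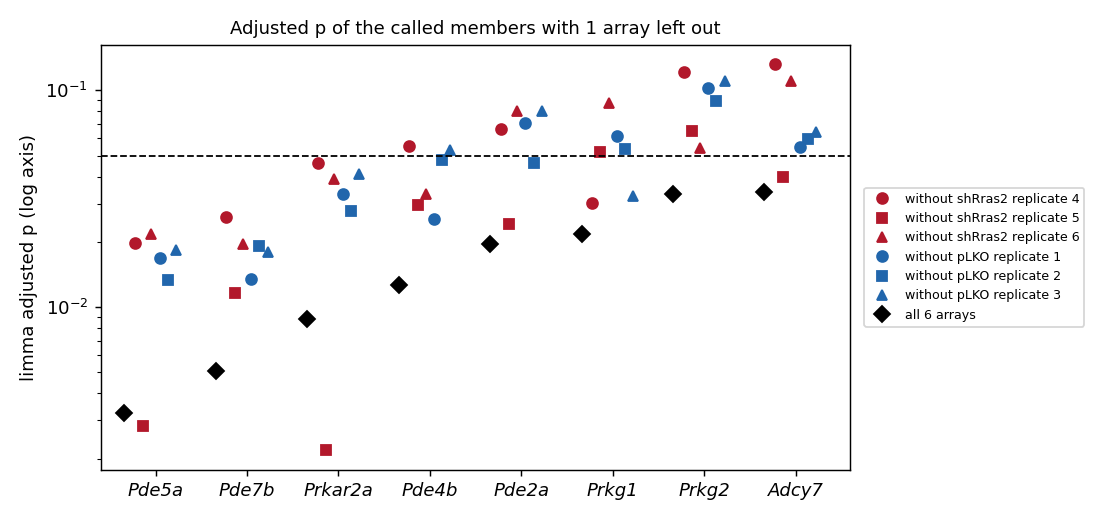
Limma adjusted p (log axis) of the 8 called genes with all 6 arrays (black diamonds) and with each array left out (red for shRras2 arrays, blue for pLKO arrays; the symbol gives the replicate), with the threshold of 0.05 dashed. All points of Pde5a, Pde7b and Prkar2a lie below the threshold; those of Prkg2 without 1 array all lie above it.

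The shRras2 arrays were not alike for the called genes. Replicate 5, which kept 48.1% of the Rras2 signal against 31.8% and 34.6% on replicates 4 and 6, was the shRras2 array nearest to the pLKO mean for 4 of the 8 genes, namely Pde5a, Pde2a, Prkar2a and Adcy7. Replicate 6 was nearest for 3 of them (Pde7b, Pde4b and Prkg2) and replicate 4 for 1 (Prkg1). For Pde7b and Pde4b, replicate 5 was the shRras2 array farthest from the pLKO mean. Whether these distances follow the Rras2 signal left was not tested.

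Around these enzymes, 8 lists of pathway genes with 105 entries were counted, of which 93 genes were measured and 10 called, where 5.21% of all genes were called and the counts per list below are to be read against that share. That count was 4 without pLKO replicate 3 or shRras2 replicate 4 or 6, 6 without pLKO replicate 1 or 2, and 12 without shRras2 replicate 5. Of 15 genes for A-kinase anchoring proteins, which hold PKA at membranes and organelles through its regulatory subunits, 3 rose and 0 fell (median difference of the list 0.03, against -0.01 for all genes). Akap12, a scaffold for PKA and protein kinase C, averaged 8.32 ± 0.17 in shRras2 cells and 7.55 ± 0.21 in pLKO cells (SD, n = 3 each; difference 0.77, limma adjusted p = 0.0109). Akap13, which also activates RhoA, was dim and rose by 0.60 (limma adjusted p = 0.00609). Akap6, which tethers PKA at the nuclear envelope of muscle cells, was dim and rose by 0.40 (limma adjusted p = 0.0436). Akap12 and Akap13 kept their calls in every fit without 1 array, and Akap6 in 0 of the 6 (adjusted p up to 0.126).

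Of the genes upstream of cGMP, 1 of 9 rose and 0 fell. This was Npr3, the natriuretic peptide receptor that clears its ligands and has no cyclase domain, with 8.68 ± 0.15 in shRras2 cells and 7.42 ± 0.25 in pLKO cells (SD, n = 3 each; fold 2.39, limma adjusted p = 0.00177), a call that stayed in all 6 fits without 1 array. Of 24 cyclase-coupled receptor genes listed, 17 were measured, all of them dim. The listed beta-adrenergic and adenosine receptor genes were not among those measured. Ptger4, a receptor for prostaglandin E2, rose by 0.40 (limma adjusted p = 0.0273), and Calcrl, the receptor for adrenomedullin and related peptides, fell by 0.57 (limma adjusted p = 0.018). Leaving out single arrays, Ptger4 was kept in 0 of 6 fits (highest adjusted p 0.105) and Calcrl in 2 (0.0753).

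Of 18 CREB-responsive genes, whose transcription cAMP is known to raise through PKA, 3 rose and 1 fell (median 0.11). Ppargc1a, a coactivator of mitochondrial genes, rose by 0.80 (limma adjusted p = 0.00407), Gem, a small GTPase that restrains calcium channels, by 0.67 (0.0231) and Dusp1, a MAP kinase phosphatase, by 0.43 (0.0257), while the neurotrophin gene Bdnf fell by 0.46 (0.0425). Of the 6 fits that leave out an array, Ppargc1a passed in 6, Gem in 3, Dusp1 in 2 and Bdnf in 1 (highest adjusted p 0.0241, 0.0977, 0.102 and 0.135).

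In 4 lists no gene passed limma's threshold, and their counts at an unadjusted p under 0.05 are to be read against the 19.1% of all genes at that level. The lists are the 7 genes of the CREB family and its coactivators (1 with an unadjusted p under 0.05), the 7 G-alpha subunit genes of the cyclase-coupled classes (2), the 18 genes for PKA inhibitors and other cyclic nucleotide effectors (2), and the 2 exporter genes, Abcc4 and Abcc5 (1). Their median differences were 0.07, -0.03, 0.01 and -0.17.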

How the data were processed

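Gene expression was measured on 6 Affymetrix arrays, 3 for shRras2 cells and 3 for pLKO cells. The authors deposited RMA values on the log2 scale, 1 per probe set; RMA and R 3.6.3 are named in the submitters' processing notes. RMA includes background correction and quantile normalization, so small shared shifts are removed and dim signals compressed. Its package version and any filters were not given in the sources used here.

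The table holds 29129 probe sets, of which 19572 carry 1 gene symbol in the platform annotation. Of the 22206 transcript probe sets, 2634 do not carry exactly 1 symbol. The brightest probe set per symbol was kept, which left 19505 genes. RefSeq (GRCm38.p6) gave the promoter windows and synonyms, and 1 listed name, Akap2, was matched to Pakap in this way. Groups were compared with limma 3.58.1 in R 4.3.3 (two-sided, lmFit and eBayes without covariates), and p-values were adjusted by Benjamini-Hochberg over all genes; residual degrees of freedom were 4 and prior degrees of freedom 4.85. Precision is limited by the number of arrays; differences had a median SE of 0.096. The test was checked on simulated data.

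The genes, lists and tests were chosen with earlier results of these data known. Per-array values are given for every gene of the family past the threshold and, in each class, for up to 6 with the largest differences among those above the negative-control percentile. From each pathway list up to 4 called genes are named, and up to 2 that went the other way. Alternatives were 3 other scalings, a fit without the 30% of genes with the lowest mean, and other uses of probe sets. The rest were other variance models, array weights and leaving out each array.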

Additional observations from a re-analysis of the deposited data

How the results depend on the processing

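No paired analysis was possible because the groups share no replicate numbers. The 8 genes called of the 49 were called in each of the 8 alternatives that kept all 6 arrays: 3 other scalings, the filter on dim genes, the 2 other uses of probe sets, the trended robust variance and array weights. Each of the 49 has 1 probe set, so the 2 other uses of probe sets could not change their values, only the other genes in the fit. With the trended robust variance the counts were 13 of the 49 genes (10 higher), 18 pathway genes and 1908 of all genes (965 higher, 943 lower). Without 1 array the counts ranged from 4 to 8 of the 49 genes (3 to 6 higher, 1 to 2 lower) and from 4 to 12 pathway genes. For all genes they ranged from 392 to 1136 (280 to 684 higher, 112 to 452 lower). A smaller group lowers the power of the test by construction. Without shRras2 replicate 5, however, 1136 of all genes and 12 pathway genes were called, against 1017 and 10 with all arrays. The cause of this rise was not tested. The fewest called of the 49 were 4, without pLKO replicate 1 and without shRras2 replicates 4 and 6. Rras2 stayed past the threshold throughout, between -1.59 and -1.29 without 1 array. Centring arrays on their median put 47.2% of called genes higher, against 57.4% in the main setting, while the 49 genes kept 6 higher and 2 lower. The differences near 0 of Pde3a (-0.01) and Pde4a (0.02) changed sign, and neither passed: Pde3a was 0.0056 after a second quantile normalization, 0.016 after cyclic loess and 0.0121 with array weights, and Pde4a was -0.0183 after centring. Without 1 array they ranged from -0.058 to 0.0435 and from -0.054 to 0.069; the cause was not tested. The 35 dim genes, Pde4b, Pde2a and Prkg1 among them, limit what these arrays can show.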
